A study of Mus musculus with 10 samples.

Results

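Messenger RNA of 10 unfolded protein response genes (Hspa5, Hsp90b1, Atf4, Ddit3, Trib3, Ern1, Xbp1, Atf6, Herpud1 and Dnajb9) was examined in lungs and lung squamous cell carcinomas (SCC) of the mouse. The genes were taken from a list of names, with no threshold on their values, though with earlier results of these data known. Their probes were found through the accessions of the array annotation, 15 of 41174 probes, and the 10 genes stood among 19096 genes that could be paired with a probe. Where several probes measured a gene, the one with the highest mean over the 10 arrays was used for it. The study compared 5 wild type (WT) lungs of genotype Lkb1f/f with 5 SCCs of genotype CCSPiCreLkb1f/f, to find the genes that differ when a squamous tumor forms without Lkb1. All animals were of strain B6.129 per the labels (the study's methods write the name with a semicolon, the form for a mixed background), were 13 months old and received no special treatment per the labels, and both groups carried floxed Lkb1 alleles. In the SCC group the recombinase was driven from the CCSP gene, which is active in club cells of the airway epithelium, so that deletion was directed to that epithelium and not to the other cells that a whole tumor contains. RNA came from the whole lung in the WT group and from the whole lung tumor in the SCC group. In such bulk samples fewer cells of a type and less RNA per cell cannot be told apart. Lkb1 itself (Stk11) is not analysed here.

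The unfolded protein response adjusts the endoplasmic reticulum (ER) to its load of unfolded protein. It runs through 3 sensors in the ER membrane: PERK, which phosphorylates eIF2alpha and so favours translation of ATF4, IRE1, which splices Xbp1 mRNA, and ATF6, whose cytosolic part is cut off and enters the nucleus. BiP, the product of Hspa5, is the ER Hsp70 chaperone that holds the sensors inactive when the load is low. The lung's secretory cells, such as club cells, goblet cells and alveolar type 2 cells, rely on this system, as do plasma cells. The arrays measured mRNA only, so eIF2alpha phosphorylation, ATF6 cleavage and the splicing of Xbp1 were not measured.

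The genes' start regions were searched for motifs known from this response, because members of the same response differed in direction on the arrays. The windows were the 250 bases before the start of each gene (RefSeq, GRCm38.p6), and 9 of the 10 genes had an entry. The ER stress response element (ERSE) was searched as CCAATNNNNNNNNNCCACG, ERSE-II as ATTGGNCCACG, the core of the unfolded protein response element (UPRE) as TGACGTG and the core of the amino acid response element as TGATGNAA, all on both strands. Only exact matches were counted, so copies that depart from these letters were missed. The windows of 3 genes held at least 1 match, and they are shown with the matched letters in capitals, each on the strand of its gene.
Hspa5, chr2:34771840-34772089, plus strand: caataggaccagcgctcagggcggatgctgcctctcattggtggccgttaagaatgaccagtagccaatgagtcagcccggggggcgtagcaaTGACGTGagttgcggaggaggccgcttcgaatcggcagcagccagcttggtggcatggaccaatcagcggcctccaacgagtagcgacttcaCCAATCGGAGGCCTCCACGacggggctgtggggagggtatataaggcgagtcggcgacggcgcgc
Hsp90b1, chr10:86705445-86705694, minus strand: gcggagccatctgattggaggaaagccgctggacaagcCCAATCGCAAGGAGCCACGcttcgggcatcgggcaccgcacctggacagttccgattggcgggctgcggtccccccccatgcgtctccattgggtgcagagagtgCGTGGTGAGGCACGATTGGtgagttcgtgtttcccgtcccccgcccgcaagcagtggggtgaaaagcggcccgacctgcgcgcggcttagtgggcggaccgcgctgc
Herpud1, chr8:94386179-94386428, plus strand: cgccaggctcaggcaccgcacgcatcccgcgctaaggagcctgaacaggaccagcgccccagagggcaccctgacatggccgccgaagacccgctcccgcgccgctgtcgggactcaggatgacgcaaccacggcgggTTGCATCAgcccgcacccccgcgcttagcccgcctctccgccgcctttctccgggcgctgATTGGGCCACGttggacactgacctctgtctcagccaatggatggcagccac

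In the Hspa5 window the only exact ERSE match began 65 bases before the start, and the UPRE core began 157 bases before it. The Hsp90b1 window held 2 ERSE matches, which began 212 bases before the start and, on the opposite strand, 107 bases before it. Herpud1 had an ERSE-II that began 52 bases before the start and, on the opposite strand, an amino acid response element core that began 112 bases before it. Of 32851 start regions of this length, 37 (0.113%) held the ERSE, 10 (0.0304%) the ERSE-II, 542 (1.65%) the UPRE core and 1134 (3.45%) the amino acid response element core. These matches describe letters in the windows and are not evidence of binding.

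On the arrays, Hspa5, Atf4, Ern1 and Xbp1 were higher in SCC and Herpud1 was lower, while Hsp90b1, Ddit3, Trib3, Atf6 and Dnajb9 did not pass the test. Every value below is the quantile-normalized log2 intensity, and a difference is SCC minus WT. A probe passed at an adjusted p below 0.05 in limma over all 30374 tested probes. Thus 5 of the 10 genes passed, 4 higher and 1 lower, where 49.0% of all tested probes passed, 22.4% higher and 26.6% lower, and 53.9% of genes did with 1 probe each. The count of 5 lay close to that background and is therefore not a result about these genes as a group. The median difference over the 10 genes was 0.28, beside -0.09 over all tested probes. Each gene lay well above background on all 10 arrays. The largest change, that of Hspa5, was 1.69-fold, and 0 of the 10 reached a 2-fold difference at an adjusted p below 0.05, where 22.9% of all tested probes did (9.92% higher and 13.0% lower). That balance turned with scaling to the 75th percentile, under which 3504 probes were higher and 3080 lower at 2-fold, against 3014 and 3940 here. At an unadjusted p below 0.05 in limma 6 genes passed, and 0 of these reached 2-fold. The plot of single genes by array shows the values behind these counts.

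**Figure D1:**
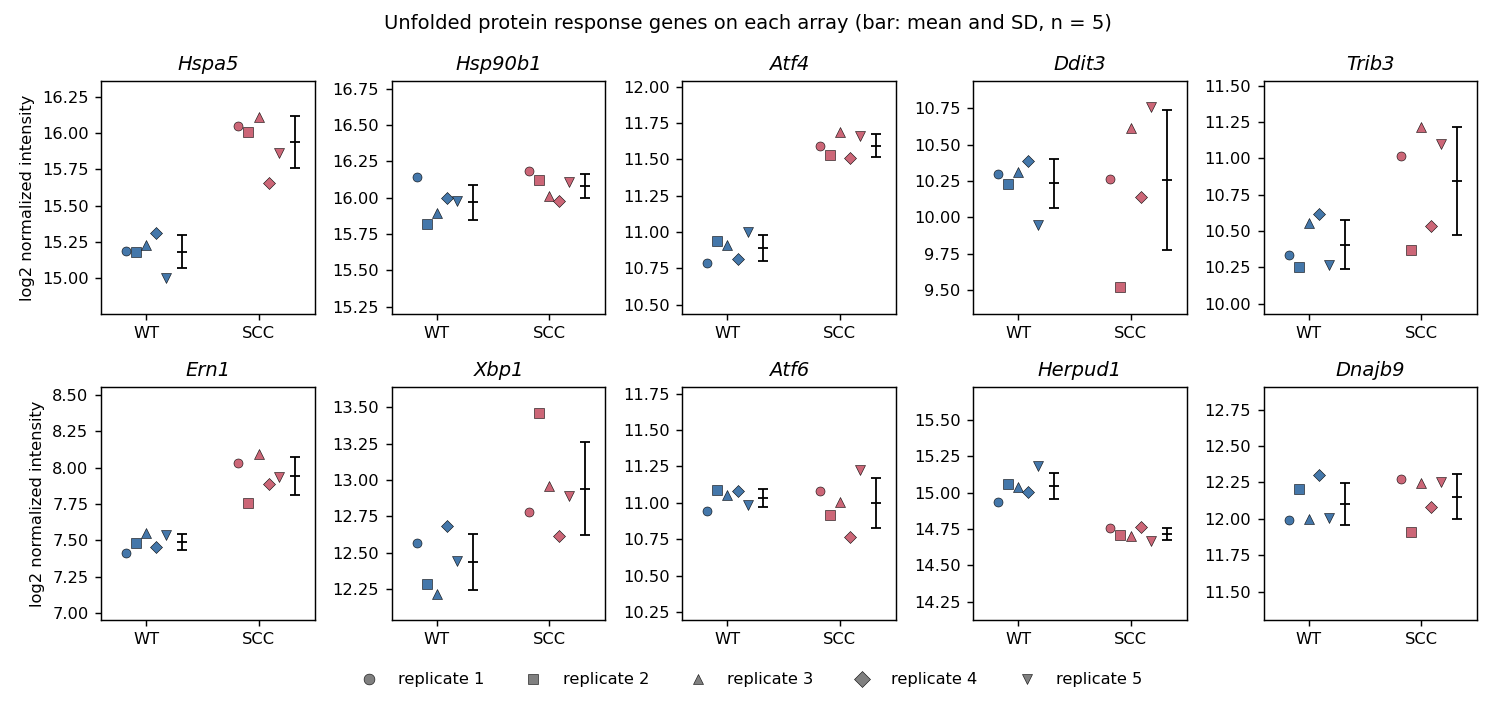
Log2 normalized intensity (vertical axes, of equal span but centred on each gene) of the 10 genes on the 5 WT and 5 SCC arrays. A marker shape is a replicate number within its group and does not link the groups, and the bar is the mean and SD (n = 5). The groups do not overlap for Hspa5, Atf4 and Ern1 (SCC higher) and for Herpud1 (SCC lower), and SCC replicate 2 is highest for Xbp1 and lowest for Ddit3.

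Markers of the tissue were checked on each array. Of the 7 squamous markers tested, 7 passed and were higher in SCC. Summed over the list, squamous markers reached 7.62 to 8.19 on WT and 16.22 to 18.77 on SCC arrays (log2 of the summed intensity), lowest among the SCC arrays on replicate 2. On that array Sprr1b, at 1.86, lay within the WT range, and Krt6a, at 10.3, and Dsg3, at 5.57, lay far below the other SCC arrays. Goblet cell markers rose from 8.27 to 9.80 on WT to 15.54 to 18.83 on SCC arrays, with 7 of 7 higher, and replicate 2 was highest. Club cell markers (4 of 4), endothelial markers (6 of 6) and alveolar type 2 markers (5 of 8) were lower in SCC. Cardiac muscle markers (5 of 6 lower) summed to 13.73 to 17.19 on WT and 13.22 to 13.63 on SCC arrays, a spread that was wide among the WT arrays. Of the remaining lists, fibroblast markers were 3 lower and 2 higher of 6, plasma cell markers 3 lower of 7, ciliated cell markers 2 lower of 6, and macrophage markers 3 higher and 1 lower of 6. Neutrophil markers (3 of 6 higher) summed to 16.73 to 16.88 on 4 SCC arrays and to 14.05 on SCC replicate 2, which lay below the WT range of 14.74 to 15.55. SCC replicate 5 had 90.2% of its probes well above background, against 71.0% to 74.5% on the other 9 arrays. Of the 3 slides, the first held 4 WT arrays, the second held WT replicate 5 beside SCC replicates 1, 2 and 3, and the last held the other SCC arrays. Only WT replicate 5 therefore stands for WT within a slide that held both groups. The part of cell composition in the values of the 10 genes was not tested.

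Of the 2 ER chaperones among the 10 genes, Hspa5 was higher in SCC and Hsp90b1 depended on the probe. Hspa5 stood at 15.19, 15.18, 15.23, 15.31 and 15.00 on WT replicates 1 to 5, and at 16.05, 16.00, 16.11, 15.66 and 15.86 on SCC replicates 1 to 5. All SCC arrays exceeded all WT arrays, and SCC replicate 4 came nearest to the WT range. The means were 15.18 ± 0.11 and 15.94 ± 0.18 (SD, n = 5), a difference of 0.75 (SE 0.11, limma adjusted p = 0.000366). With the slide as a block, which is also the contrast within slide 2, Hspa5 differed by 1.05 (limma adjusted p = 0.00905), and it was then the 1 member past 2-fold. That contrast set SCC replicates 1 to 3 against WT replicate 5 alone, the lowest WT array for Hspa5. SCC replicate 4, the lowest SCC array, did not enter it. Hsp90b1 encodes Grp94, the Hsp90 of the ER. Its WT arrays read 16.14, 15.82, 15.89, 16.00 and 15.98, and its SCC arrays 16.18, 16.12, 16.01, 15.98 and 16.11. The groups overlapped, and the difference of 0.11 (SE 0.088, limma adjusted p = 0.307) did not pass. Its second probe, at 14.33 to 14.63 on WT and 14.61 to 14.82 on SCC arrays, passed with a difference of 0.24 (SE 0.084, limma adjusted p = 0.0408). The brighter probe passed when arrays were scaled to their 75th percentile instead of quantile-normalized, at 0.34 (limma adjusted p = 0.0142). Within an array, the log2 ratio of the Hspa5 probe to the brighter Hsp90b1 probe was -0.98 to -0.64 on WT and -0.32 to 0.10 on SCC arrays, without overlap, which shows an unequal change of both genes. Both windows above held an ERSE.

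In the PERK branch, Atf4 mRNA rose while that of Ddit3 spread widely. Atf4, the transcription factor that drives amino acid and redox genes, read 10.79, 10.94, 10.91, 10.82 and 11.00 on the WT and 11.59, 11.53, 11.69, 11.51 and 11.66 on the SCC arrays. No SCC array came within the WT range, and the spread within both groups was small (10.89 ± 0.088 and 11.59 ± 0.079, SD, n = 5). The difference was 0.70 (SE 0.081, limma adjusted p = 0.000101), and 0.60 with the slide as a block (limma adjusted p = 0.0457). Ddit3 encodes CHOP, a factor tied to cell death under lasting stress. It read 10.30, 10.23, 10.31, 10.39 and 9.95 on the WT and 10.26, 9.52, 10.61, 10.14 and 10.76 on the SCC arrays. SCC replicates 3 and 5 lay above all WT arrays and SCC replicate 2 below them. The difference was 0.02 (SE 0.22, limma adjusted p = 0.938), with an SD of 0.48 in SCC against 0.17 in WT. Trib3, a pseudokinase induced by ATF4 and CHOP, showed a similar spread. It read 10.34, 10.25, 10.56, 10.62 and 10.27 on the WT and 11.01, 10.37, 11.21, 10.53 and 11.10 on the SCC arrays. SCC replicates 1, 3 and 5 exceeded every WT array, whereas replicates 2 and 4 lay within the WT range. The difference of 0.44 (SE 0.18, limma adjusted p = 0.0638) did not pass, nor did that of the second probe (0.38, limma adjusted p = 0.117). Trib3 passed without SCC replicate 2 (0.56, limma adjusted p = 0.0114) and without SCC replicate 4 (0.52, limma adjusted p = 0.0464). It also passed without SCC replicates 2 and 5 together (0.52, limma adjusted p = 0.0221). The same held with normexp background correction (0.41, limma adjusted p = 0.0369) and with array weights (0.51, limma adjusted p = 0.00793).

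Both genes of the IRE1 branch were higher in SCC. Ern1, which encodes IRE1alpha, the kinase and endoribonuclease that splices Xbp1, read 7.42, 7.48, 7.55, 7.46 and 7.54 on the WT and 8.03, 7.76, 8.09, 7.89 and 7.94 on the SCC arrays. The groups did not overlap, and replicate 2 was the lowest SCC array. The means were 7.49 ± 0.056 and 7.94 ± 0.13 (SD, n = 5), a difference of 0.45 (SE 0.087, limma adjusted p = 0.00209). In the fit blocked on slide the difference was 0.42, which did not pass (limma adjusted p = 0.151). Xbp1, the factor whose spliced form induces chaperones, ER degradation and secretory genes, read 12.56, 12.29, 12.22, 12.68 and 12.44 on the WT and 12.78, 13.46, 12.96, 12.62 and 12.89 on the SCC arrays. SCC replicate 2 was the highest by far, and SCC replicate 4 fell below WT replicate 4. The difference was 0.50 (SE 0.16, limma adjusted p = 0.0281). It was the least stable of the 5 that passed: it no longer passed without WT replicate 2 (0.46, limma adjusted p = 0.0658), WT replicate 3 (0.45, limma adjusted p = 0.0695), WT replicate 5 (0.50, limma adjusted p = 0.0531) or SCC replicate 3 (0.50, limma adjusted p = 0.0543). Nor did it pass with the slide as a block (0.62, limma adjusted p = 0.209). Without SCC replicate 2 it passed at 0.37 (limma adjusted p = 0.0239). The array with the highest Xbp1, SCC replicate 2, also had the highest summed goblet markers. Single goblet markers were highest there too among the SCC arrays, except Clca1, which was lowest, at 6.86. Summed plasma cell markers on that array, at 11.80, were the lowest of the 10 arrays, close to 11.84 on WT replicate 1. The part of goblet cells in the Xbp1 level was not tested.

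The sensor Atf6 gave different answers from its 2 probes. The brighter one read 10.94, 11.08, 11.06, 11.08 and 10.98 on the WT and 11.08, 10.92, 11.01, 10.76 and 11.23 on the SCC arrays. Its groups overlapped, with a difference of -0.03 (SE 0.099, limma adjusted p = 0.812). The other probe read 9.74 to 10.02 on the WT and 10.36, 10.05, 10.57, 10.37 and 10.33 on the SCC arrays. All SCC arrays exceeded the WT arrays on that probe, and its difference of 0.43 passed (SE 0.11, limma adjusted p = 0.00955). The mean of both probes differed by 0.20, which did not pass (limma adjusted p = 0.0968). A direction for Atf6 therefore cannot be given. The plot of differences by probe sets these beside the other genes with several probes.

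**Figure D2:**
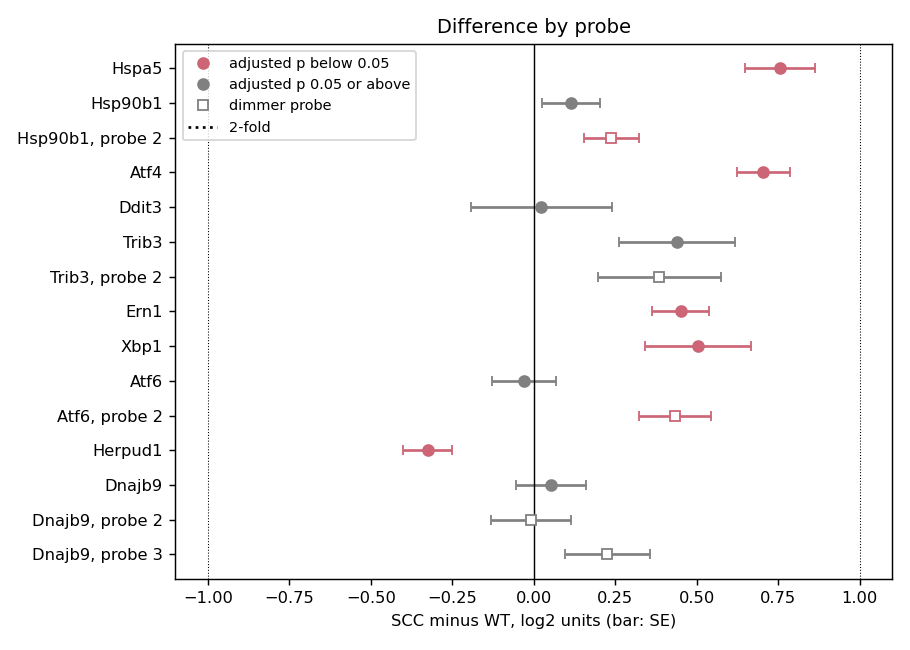
Difference between SCC and WT for each of the 15 probes of the 10 genes, in log2 units, with its SE as a bar (limma, 5 arrays in each group). Filled circles are the probe used for the gene and open squares its other probes, and red marks an adjusted p below 0.05. Hspa5 and Atf4 differ most (0.75 and 0.70), Herpud1 is the only probe that passed below 0 (-0.33), and the Atf6 probes sit at -0.03 and 0.43.

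Of the downstream genes, Herpud1 was lower in SCC and Dnajb9 did not pass. Herpud1 encodes a membrane protein of the ER degradation complex. Its WT arrays read 14.94, 15.06, 15.04, 15.00 and 15.18 and its SCC arrays 14.75, 14.71, 14.70, 14.76 and 14.66. Every SCC array lay below every WT array, and the SCC arrays spread very little. The means were 15.04 ± 0.091 and 14.72 ± 0.040 (SD, n = 5), so that Herpud1 fell by 0.33 on the log2 scale (SE 0.077, limma adjusted p = 0.00606). With scaling to the 75th percentile the difference was -0.20 and did not pass (limma adjusted p = 0.0957). That scaling moved the median of all tested probes from -0.09 to 0.03. Relative to these medians Herpud1 stood at -0.24 and -0.23. In the fit blocked on slide the difference was -0.47 (limma adjusted p = 0.0711). Dnajb9 encodes ERdj4, a co-chaperone of BiP. It read 11.99, 12.20, 11.998, 12.30 and 12.01 on the WT and 12.27, 11.91, 12.24, 12.08 and 12.25 on the SCC arrays, a difference of 0.05 (SE 0.11, limma adjusted p = 0.711). Its other probes differed by -0.0078 and 0.23 and did not pass either (limma adjusted p = 0.963 and 0.176).

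Hspa5 and Herpud1, which both carry an ER stress motif in their windows, thus moved in opposite directions. The log2 ratio of the Hspa5 to the Herpud1 probe was 0.25, 0.12, 0.19, 0.31 and -0.18 on the WT and 1.29, 1.30, 1.41, 0.90 and 1.20 on the SCC arrays. The 2 ranges were far apart, and the mean ratio differed by 1.08. The ratio of Hspa5 to Dnajb9 also separated the groups, at 2.98 to 3.23 on WT and 3.57 to 4.10 on SCC arrays. That of Atf4 to Ddit3 did not, at 0.43 to 1.05 on WT and 0.90 to 2.01 on SCC arrays. Such ratios within an array show unequal changes of 2 genes, not that either was constant. They were chosen after the values of single genes had been seen and carry no test.

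Single genes were also compared over all splits of the 10 arrays. The smallest p that the exact two-sided permutation test can give here is 0.00794, and it was reached by Hspa5, Atf4, Ern1, Herpud1 and the second Atf6 probe. In the exact test Xbp1 and the second Hsp90b1 probe gave p = 0.0159, and Trib3 gave p = 0.0556 on its brighter probe and 0.0873 on the other. The groups did not overlap for 3 genes that were higher and 1 that was lower in SCC, where 16.3% of all tested probes were without overlap and higher and 21.0% without overlap and lower. The 15 probes were compared without adjustment over this list.

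Around these 10 genes, 98 further genes of the response and of related protein folding were examined in 7 lists, and 97 had a probe. Of these, 49 were higher and 8 lower in SCC, where among 15586 genes tested with 1 probe each 53.9% passed, 25.5% higher and 28.4% lower. Their median difference was 0.35, beside -0.04 over those genes. Without the heat shock genes, which belong to the cytosol and mitochondria, 42 of 85 were higher and 6 lower. The plot of passed shares by list shows more higher than lower genes in each list. Without SCC replicate 2, 53 were higher and 16 lower, and without any other single array 43 to 49 were higher and 4 to 7 lower. With the slide as a block 18 were higher and 2 lower. Under that block the genes that passed were 8 ER chaperones and folding enzymes, 6 targets of ATF4 and CHOP (4 higher, 2 lower), 3 genes of the translocon and signal peptidase, 2 of ER-associated degradation and 1 heat shock gene, all higher but for the 2 named, and 0 sensors and regulators and 0 genes of the eIF2 list. From each list up to 4 genes with the largest difference among those that passed are described.

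**Figure D3:**
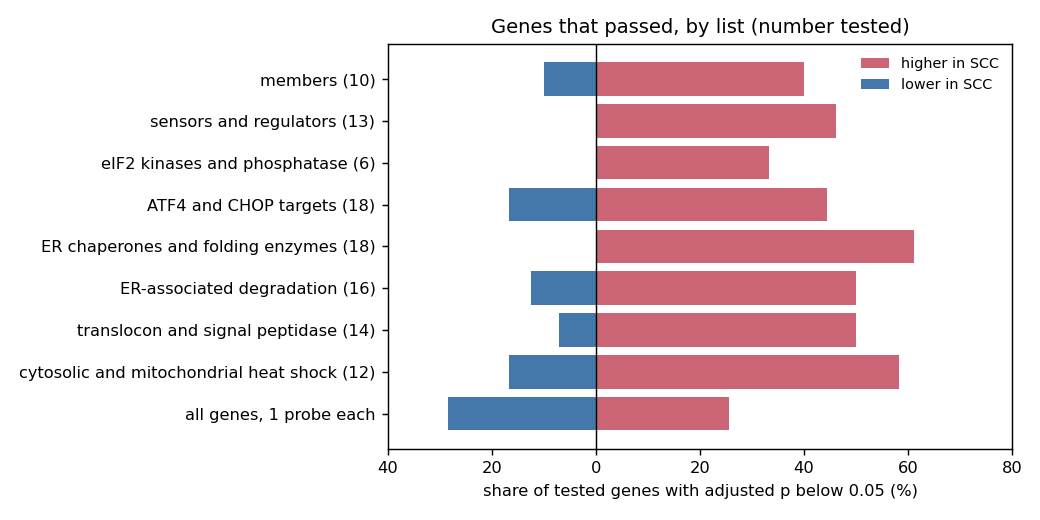
Share of the tested genes in each list (percent, horizontal axis, number tested in brackets) with a limma adjusted p below 0.05, to the right of 0 for higher and to the left for lower in SCC. The lowest bar is all 15586 genes with 1 probe each, at 25.5% higher and 28.4% lower. ER chaperones and folding enzymes show 11 of 18 genes higher and 0 lower (2 lower without SCC replicate 2).

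Of 18 ER chaperones and folding enzymes 11 were higher, each without overlap of the groups, and 0 were lower, with a median difference of 0.49. Without SCC replicate 2, 11 were higher and 2 lower. Among these genes Ero1a, the oxidase that passes electrons from protein disulfide isomerase, differed by 1.86 (SE 0.38, limma adjusted p = 0.00308), and read 11.14 to 11.77 on 4 SCC arrays but 9.44 on SCC replicate 2, against 9.11 to 9.29 on WT arrays. Sdf2l1, an ER protein that works with BiP's co-chaperones, differed by 1.67 (limma adjusted p = 0.000106). Calr, the lectin chaperone calreticulin, differed by 1.10 (limma adjusted p = 6.17e-05), and P4hb, a protein disulfide isomerase, by 1.04 (limma adjusted p = 0.000147). Sdf2l1, Calr and P4hb passed in each alternative that was run, the slide as a block included. Ero1a did not pass with the slide as a block (1.66, limma adjusted p = 0.168).

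Among 16 genes of ER-associated degradation, the removal of misfolded protein to the proteasome, 8 were higher and 2 lower (2 and 0 with the slide as a block), and Herpud1 of the same pathway was lower. Derl3, a channel component, differed by 1.37 (limma adjusted p = 0.00126). Edem2, which trims mannose from misfolded glycoproteins, read 9.01 to 9.15 on WT and 9.69 to 10.10 on SCC arrays and differed by 0.77 (SE 0.095, limma adjusted p = 0.000158). Sel1l, the adaptor of the Hrd1 ligase, differed by 0.43 (limma adjusted p = 0.0104). The lectin gene Erlec1 differed by 0.53 (limma adjusted p = 0.0469), but SCC replicate 2 stood at 13.73 and the remaining SCC arrays at 12.62 to 12.93. Without that array the difference was 0.34 (limma adjusted p = 0.00827). Erlec1 did not pass without any one of the WT replicates (limma adjusted p = 0.0718 to 0.0951), nor without SCC replicate 1 or 5 (limma adjusted p = 0.0603 and 0.0608). With the slide as a block Edem2 passed, whereas Derl3 (1.23, limma adjusted p = 0.135), Sel1l (0.53, limma adjusted p = 0.155) and Erlec1 (0.77, limma adjusted p = 0.207) did not.

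Of 14 genes of the translocon and signal peptidase, through which secretory proteins enter the ER, 7 were higher and 1 lower, and without SCC replicate 2, 7 were higher and 3 lower. Sec11c, a catalytic subunit of signal peptidase, differed by 1.05 (limma adjusted p = 0.000377), Ssr4 of the translocon-associated complex by 0.71 (limma adjusted p = 0.000226) and the peptidase subunit Spcs3 by 0.57 (limma adjusted p = 0.00264). These genes passed with the slide as a block too. Sec62, which serves import after translation, fell by 0.73 on the log2 scale (limma adjusted p = 0.00637), although SCC replicate 2, at 13.24, lay within the WT range of 13.21 to 13.35. Sec62 did not pass with the slide as a block (-0.59, limma adjusted p = 0.259). Of this list, 12 of 14 genes were highest among the SCC arrays on replicate 2 (85.7%), where that array was highest for 39.2% of 15568 genes measured on all arrays.

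Targets of ATF4 and CHOP moved both ways, with 8 of 18 higher and 3 lower and a median of 0.41. Psat1, an enzyme of serine synthesis, differed by 2.26 (SE 0.32, limma adjusted p = 0.000333), and Atf3, a stress-induced transcription factor, by 2.20 (SE 0.59, limma adjusted p = 0.0119). Psat1 read 9.43 to 9.80 on WT arrays, 11.99 to 12.50 on 4 SCC arrays and 10.63 on SCC replicate 2. Atf3 read 9.24 to 9.76 on WT arrays, 12.09 to 12.82 on 4 SCC arrays and 9.27 on SCC replicate 2, within the WT range, and without that array it differed by 2.83 (limma adjusted p = 1.74e-06). Chac1, which degrades glutathione, differed by 1.54 (limma adjusted p = 0.0293), and SCC replicate 2, at 9.45, lay below the WT arrays. It no longer passed without WT replicate 3, 4 or 5 or SCC replicate 1, 3, 4 or 5 (differences of 1.30 to 1.55, limma adjusted p = 0.0522 to 0.0681), while without SCC replicate 2 it stood at 2.05 (limma adjusted p = 8.14e-05). Vldlr, a lipoprotein receptor, fell by 1.57 on the log2 scale (limma adjusted p = 0.000525). Blocked on slide, Psat1 passed, whereas Atf3 (1.72, limma adjusted p = 0.349), Chac1 (1.62, limma adjusted p = 0.318) and Vldlr (-1.36, limma adjusted p = 0.0887) did not.

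Of 13 further sensors and regulators 6 were higher and 0 lower, and without SCC replicate 2, 7 were higher and 2 lower, while with the slide as a block 0 passed. Eif2ak3 encodes the sensor PERK and read 11.01, 10.73, 10.83, 10.84 and 10.95 on the WT and 11.30, 11.06, 11.38, 11.35 and 11.21 on the SCC arrays. Its groups did not overlap, and it differed by 0.39 (SE 0.094, limma adjusted p = 0.00754). Ern2 encodes IRE1beta, the form of IRE1 found in mucus-producing epithelium. It read 5.33 to 5.59 on WT arrays and 6.57, 10.13, 6.36, 6.66 and 8.16 on SCC replicates 1 to 5, a difference of 2.12 (SE 0.65, limma adjusted p = 0.022). Without SCC replicate 2 the difference was 1.48 (limma adjusted p = 0.00453), and without replicates 2 and 5 together 1.07 (limma adjusted p = 2.05e-05). Its highest arrays, SCC replicates 2 and 5, were also those with the highest summed goblet markers, at 18.83 and 17.13. The remaining SCC arrays had 15.54 to 16.37. Of single goblet markers, Agr2, Spdef and Tff2 were highest on these arrays, while Muc5ac and Muc5b were next highest on SCC replicate 1. Among the SCC arrays, Foxa3 was lowest on replicate 5, at 4.37, and Clca1 on replicate 2, at 6.86. The part of goblet cells was not tested. Creb3l1, an ER-anchored transcription factor, differed by 1.51 (limma adjusted p = 0.00396), and it too was highest on SCC replicate 2, at 9.04 against 7.16 to 7.82. Wfs1, an ER membrane protein, differed by 0.81 (limma adjusted p = 0.00285). Blocked on slide, none of these 4 passed in limma: the differences were 0.29 for Eif2ak3 (adjusted p = 0.338), 2.24 for Ern2 (adjusted p = 0.293), 1.77 for Creb3l1 (adjusted p = 0.0736) and 0.59 for Wfs1 (adjusted p = 0.236). With normexp background correction Ern2 differed by 1.17 (limma adjusted p = 0.05) and Creb3l1 by 0.88 (limma adjusted p = 0.00719).

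Of the 6 genes for eIF2 kinases, eIF2alpha and its phosphatase 2 were higher. Eif2s1, the gene of eIF2alpha, differed by 0.55 (limma adjusted p = 0.013), with overlap of the groups. Eif2ak1, the haem-regulated kinase, differed by 0.31 (limma adjusted p = 0.0203) and no longer passed without WT replicate 5 (0.28, limma adjusted p = 0.0505). With the slide as a block Eif2s1 (0.56, limma adjusted p = 0.25) and Eif2ak1 (0.53, limma adjusted p = 0.078) did not pass.

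Heat shock genes of the cytosol and mitochondria, which belong to a separate stress response, were 7 higher and 2 lower of 12 (1 and 0 with the slide as a block). The inducible Hsp70 genes Hspa1b and Hspa1a differed by 2.84 (limma adjusted p = 0.00152) and 2.21 (limma adjusted p = 0.00841). They are near-identical copies whose probes may not tell them apart, so a split between them is uncertain. SCC replicate 2 read 11.28 for Hspa1a, within the WT range of 11.18 to 11.66, while the other SCC arrays read 14.05 to 14.50, and without that array Hspa1a differed by 2.80 (limma adjusted p = 5.81e-07). Hsph1, an Hsp110, differed by 0.95 (limma adjusted p = 0.00647). Dnajb1, an Hsp40 co-chaperone, differed by 0.87 (limma adjusted p = 0.0234), but did not pass without WT replicate 3 or SCC replicate 1, 3 or 4 (0.77 to 0.84, limma adjusted p = 0.0508 to 0.0554). Blocked on slide, these 4 did not pass in limma: the differences were 2.37 for Hspa1b (adjusted p = 0.158), 1.67 for Hspa1a (adjusted p = 0.329), 0.47 for Hsph1 (adjusted p = 0.484) and 0.57 for Dnajb1 (adjusted p = 0.476). Of the 12 genes, 8 were lowest among the SCC arrays on replicate 2 (66.7%), where that array was lowest for 30.6% of all genes.

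Among the SCC arrays, replicate 2 was lowest for 4 and highest for 1 of the 10 genes, and lowest for 31 and highest for 44 of the 97 further genes. The counts for the further genes lay near the shares over 15568 genes measured on all arrays, for which it was lowest for 30.6% and highest for 39.2%. SCC replicate 4 was lowest for 5 of the 10 genes and for 30 of the 97 further genes (30.9%), where it was lowest for 14.7% of all genes. Without it, 6 of the 10 genes passed, 5 higher and 1 lower, the addition being Trib3. Without SCC replicate 5, 5 passed, 4 higher and 1 lower. The plot of SCC arrays by gene marks replicate 2, since the described genes include those on which it lay far from the others.

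**Figure D4:**
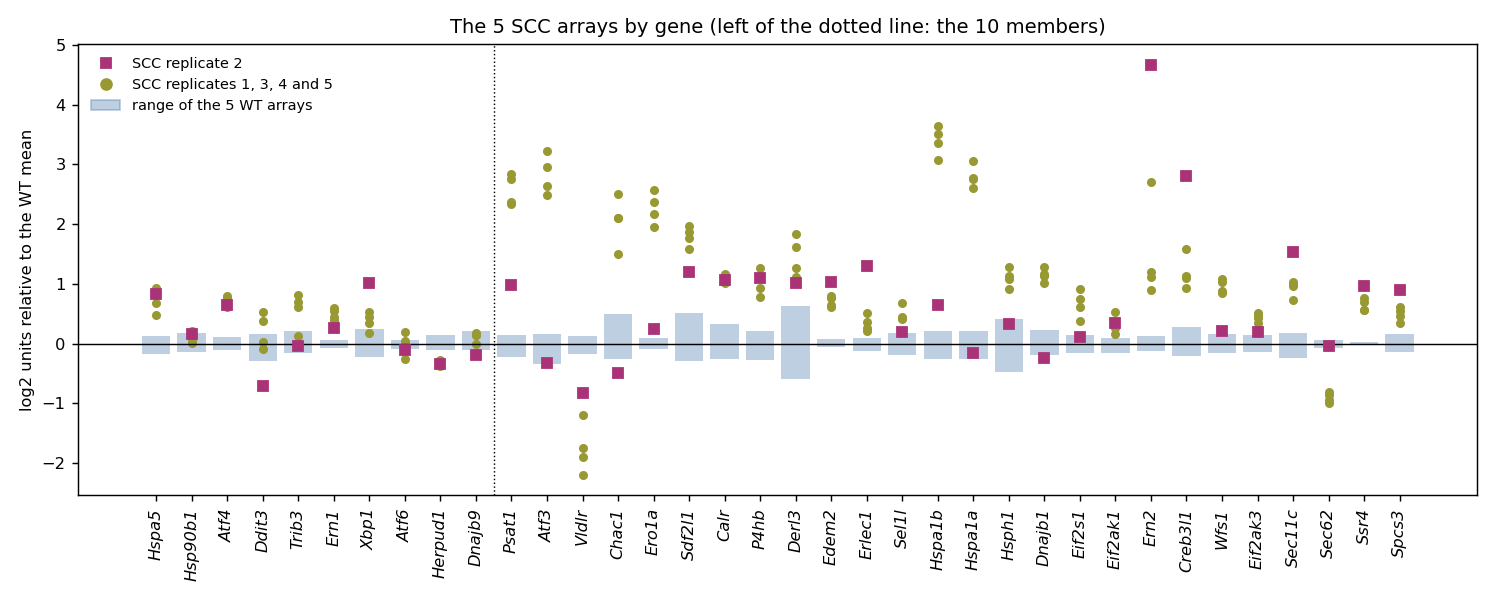
Each SCC array relative to the WT mean (log2 units, vertical axis) for the 10 genes, left of the dotted line, and for the described genes of the 7 further lists. Squares are SCC replicate 2, circles the other 4 SCC arrays, and the shaded bar is the range of the 5 WT arrays. For Atf3 and Hspa1a the square lies within the WT range while the circles lie more than 2 units above the WT mean, and for Ern2 and Creb3l1 the square is the highest point.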

How the data were processed

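Total RNA of 5 WT lungs and 5 SCCs was hybridised by the authors to 1-color Agilent whole mouse genome arrays, 1 array per sample, and read with Agilent Feature Extraction 12. Per the file headers, the scanner files they deposited give for each spot a background-subtracted, linear processed intensity, the raw and background intensity, and flags of other kinds (outlier, well above background, saturated). A matrix of log2 values was deposited as well. It correlated at r = 0.985 to 0.9999 with log2 of the processed intensity of the same array, and was used as an alternative and to choose the probe of a gene.

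Control spots and outlier spots were left out, intensities were converted to log2, spots of a probe were averaged, and the log2 values were quantile-normalized. The authors' methods also name quantile normalization and log2 conversion. A probe was tested if well above background on at least 4 of the 5 arrays of a group, which left 30374 of 41174 probes. No probe was saturated. Groups came from the sample titles, and differences were fitted over all 10 arrays by limma 3.58.1 under R 4.3.3 (functions lmFit and eBayes, without covariates, two-sided p, Benjamini-Hochberg adjustment over all tested probes) in place of the authors' analysis of variance. Exact permutation tests used SciPy 1.17.1. The fit was tested on simulated data. The sample size was stated by the authors to be biological replicates; p-values measure the spread between these samples.

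Accessions were paired with symbols through RefSeq (GRCm38.p6): 28223 probes (68.5%) received one. The array's own coordinates follow another build and are not given. The 10 genes and the 7 further lists were chosen with earlier results of these data known. From each further list, up to 4 genes with the largest absolute difference among those that passed are named, plus Eif2ak3. Cell type markers came from lists of 11 cell types. The number of arrays limits the precision. Alternatives were the scaling, the background correction, the filter on dim probes, the slide, the replicate number, each array left out, array weights, the test and the choice of probe.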

Additional observations from a re-analysis of the deposited data

Results flagged for a closer look

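Of 82 groups of 5 arrays examined among the 10 genes, their other probes and the described further genes, 9 had a highest or lowest array whose gap to its neighbour exceeded 0.71 of the group's range. Chance alone gives about 1 in 20 such groups if values are normally distributed, and the share over all genes was not computed. All 9 were SCC replicate 2, which was lowest of the SCC arrays for 30.6% and highest for 39.2% of 15568 genes. It was low for Psat1 (10.63 against 11.99 to 12.50 on the other SCC arrays, gap 0.728 of the range), Atf3 (9.27 against 12.09 to 12.82, 0.793), Ero1a (9.44 against 11.14 to 11.77, 0.73) and Wfs1 (11.71 against 12.35 to 12.59, 0.724). Among heat shock genes it was low for Hspa1b (9.33 against 11.77 to 12.34, 0.809), Hspa1a (11.28 against 14.05 to 14.50, 0.859) and Dnajb1 (14.12 against 15.37 to 15.65, 0.818). It was high for Erlec1 (13.73 against 12.62 to 12.93, 0.725) and Sec62 (13.24 against 12.29 to 12.48, 0.805). None of the 10 genes themselves had such an array on any of their probes. Several of these genes share biology and the same array, so the 9 are not independent.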

How the results depend on the processing

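The count of genes that passed held between 4 and 7 of the 10 in all alternatives but the slide as a fixed block, which left 2 (Hspa5 and Atf4), with 1 past 2-fold, 20 further genes (18 higher, 2 lower) against 57, and 2988 called probes at 2-fold (1402 higher, 1586 lower) against 6954. That fit rests on WT replicate 5 alone, and the cause was not tested. With normexp background correction 4024 probes were called (1938 higher, 2086 lower), and the cause was not tested. Under it 6 of the 10 genes passed, the addition being Trib3. Leaving out 1 array gave 4 to 6 of the 10 genes, 0 past 2-fold, 47 to 69 further genes and 6385 to 8135 called probes. Directions reversed only for genes that did not pass: Ddit3 ranged from -0.10 to 0.21 without 1 array each, with -0.05 without WT replicate 5, -0.07 without SCC replicate 3 and -0.10 without SCC replicate 5. Atf6 was 0.017 with the slide as a block, 0.028 without SCC replicate 4 (-0.088 without SCC replicate 5), 0.43 on its second probe and 0.20 with both averaged. Dnajb9 was -0.0078 on its second probe. Scaling to the 75th percentile kept 5 genes, all higher (Hsp90b1 gained, Herpud1 lost). The labels give same-numbered samples no link beyond the number. Their deviations correlated at -0.103 to 0.00867, and 0 of 5 WT arrays correlated best with their own number. Such correlations cannot exclude a pairing of the animals. The replicate block left 4 of the 10 genes (Xbp1 lost, limma adjusted p = 0.0906), 6571 called probes and 44 further genes, among them 6 higher and 0 lower of ER-associated degradation, 5 and 0 of heat shock and 1 of the eIF2 list. The methods' test, without adjustment, passed 6 of the 10 genes, 64 further genes and 16752 probes, and with it 5, 57 and 14464. Atf4 and Hspa5 passed in every alternative with a test.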
